A study of Mus musculus with 20 samples.

Results

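Class A bHLH factors are represented by 63 of the 1205 motif matrices in a footprint table made from ATAC-seq of the mouse neocortex. The members were chosen by the factor name of the matrix alone, with 26 name beginnings such as ATOH, NEUROD, TCF4, TFAP4 and ZEB, and no measured value entered the choice. No matrix carried the name LYL1 or MESP. The 63 matrices named 31 factor genes, since 19 names had more than 1 matrix, and the table had sorted them into 18 clusters of similar matrices. Not every member is a class A bHLH factor: TFAP4 is a bHLH leucine zipper protein, ZEB1 is a zinc finger protein that reads the same DNA site, and TAL1::TCF3, TFAP4::FLI1 and TFAP4::ETV1 are composite matrices of a pair of factors.

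The cells were sorted by the GFP of their Nkx2.1-lineage reporter from neocortex at postnatal day 7 or 8, and the footprint values are labelled day 7. WT mice carried Nkx2.1-Cre and the Cre-dependent EYFP reporter Ai3, and Tcf4 cKO mice carried both of these and 2 conditional (floxed) Tcf4 alleles, so Nkx2.1-Cre was present in both genotypes. ATAC-seq, which maps open chromatin by transposase cutting, used 50000 cells per library. ATAC-seq and Cut&Tag for H3K27ac, H3K4me1 and H3K27me3 were each made in 2 libraries of either genotype. Tcf4 occupancy was measured by anti-Flag Cut&Tag in 2 libraries of 200000 nuclei from mice whose endogenous Tcf4 carries an HA and Flag tag after Nkx2.1-Cre activation. The sorted cells are a mixture of cell types in which Nkx2.1-Cre had been active, and the labels do not give the proportions. ATAC-seq peaks of both WT libraries lay within 1 kb of a start site of Olig1, Olig2, Sox10 and Pdgfra of the oligodendrocyte lineage, of Lhx6, Gad1 and Gad2 of interneurons, of Slc1a3 of astrocytes, of P2ry12 and Cx3cr1 of microglia of Cldn5 and Flt1 of endothelium and of Emx1 of projection neurons. These were 4 of 5 oligodendrocyte lineage, 3 of 4 interneuron, 1 of 4 astrocyte, 2 of 3 microglia, 2 of 3 endothelium and 1 of 3 projection neuron markers. Over all protein-coding genes the share with such a peak was 65.7%. With 3 to 5 markers per type, the counts do not show which of these cell types were present. Cspg4, Sst, Aqp4, Gfap, Aldh1l1, Aif1, Pecam1, Neurod6 and Slc17a7 had no such peak shared by the WT libraries. In such a mixture, fewer cells of a type and less open chromatin per cell cannot be told apart.

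bHLH proteins bind DNA as dimers through a basic region, and each partner reads one side of a short palindrome-like site, the E-box, CANNTG. The central bases and the flanks differ between dimers. Class A bHLH proteins are the E proteins Tcf3, Tcf4 and Tcf12, which are made in most tissues, and the tissue-restricted factors that usually bind DNA together with one of them, such as the Neurog and Neurod proteins or Myod1. In the developing brain Neurog2, Atoh1 and Ptf1a set neuronal fates, and Olig-family proteins act in oligodendrocyte and neuronal lineages. A matrix cannot say which of these proteins occupied a site.

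The sites themselves are shown first, because the footprint values below are averages over many of them. The next 4 windows of 150 bases are centred on Tcf4 anti-Flag summits in regions open in WT alone, meaning that each WT library and no Tcf4 cKO library had an ATAC-seq peak there. Each region held summits of both Tcf4 libraries, and the windows are among those with the most CAGCTG and CACCTG cores. They are from GRCm38 (mm10), plus strand, with CAGCTG and CACCTG (or its reverse complement CAGGTG) in capitals and all other bases in lower case.
chr1:85720319-85720468: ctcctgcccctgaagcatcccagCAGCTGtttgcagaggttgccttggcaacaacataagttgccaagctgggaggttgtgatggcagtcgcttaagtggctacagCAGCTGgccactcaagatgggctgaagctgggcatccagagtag
chr13:36941928-36942077: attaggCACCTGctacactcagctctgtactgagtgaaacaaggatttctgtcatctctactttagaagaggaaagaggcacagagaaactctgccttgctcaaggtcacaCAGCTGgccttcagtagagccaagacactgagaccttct
chr1:10056537-10056686: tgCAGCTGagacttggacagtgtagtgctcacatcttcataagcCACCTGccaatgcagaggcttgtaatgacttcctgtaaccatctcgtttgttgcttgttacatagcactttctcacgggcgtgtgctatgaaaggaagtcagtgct
chr1:177700754-177700903: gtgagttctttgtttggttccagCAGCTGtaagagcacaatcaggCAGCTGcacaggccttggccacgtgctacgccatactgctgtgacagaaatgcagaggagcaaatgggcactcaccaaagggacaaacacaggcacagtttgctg
The first window lies in an intron of A630001G21Rik and held 2 CAGCTG cores, and the mean accessibility of its region, in log2 normalized reads, was 6.07 in WT and 2.49 in Tcf4 cKO. The second lies in an intron of F13a1, which encodes a subunit of a clotting factor, and held 1 CAGCTG and 1 CACCTG (5.84 in WT, 3.07 in Tcf4 cKO). The third lies within Cspp1, a gene of a centrosome and spindle pole protein, where the deposited annotation places a promoter and GENCODE no exon, and held 1 core of each kind (6.02 and 3.34). The fourth is intergenic and held 2 CAGCTG among 4 E-boxes in all (6.98 and 4.66). One more window met the same rule, with 2 CAGCTG cores and levels of 6.65 and 4.56. It lies in the last exon of Cadm3, a gene of a cell adhesion molecule, and its bases are not printed.

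For contrast, these are windows at the centres of the 2 regions with the largest gain among those open in Tcf4 cKO alone (the reverse pattern). Neither held any CANNTG.
chr1:8410854-8411003: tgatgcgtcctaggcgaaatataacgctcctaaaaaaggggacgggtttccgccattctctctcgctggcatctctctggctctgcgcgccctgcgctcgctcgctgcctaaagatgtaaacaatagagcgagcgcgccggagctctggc
chr2:78006000-78006149: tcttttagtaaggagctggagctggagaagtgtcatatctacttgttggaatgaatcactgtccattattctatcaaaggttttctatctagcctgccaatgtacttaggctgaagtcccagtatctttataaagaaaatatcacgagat
The first lies in an intron of Sntg1, which encodes a syntrophin, with levels of 0 in WT and 5.26 in Tcf4 cKO, and the second is intergenic, with 3.56 and 7.79. These windows were picked by accessibility, so their levels describe the choice. The core count was used in picking the lost windows only.

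Every one of the 63 members had a lower mean footprint score in Tcf4 cKO than in WT. The footprint score of a site rises with the openness of its flanks and with the dip in cutting over the site, and the table gives its mean over all sites of a matrix, in 1 merged alignment per genotype. These values have no replicates and no test was made. Among all 1205 motifs, 643 had a lower mean score (53.4%). The direction was not particular to the members. Of 58 other bHLH matrices, of the Myc, Max, Usf, Mitf and Hes type among others, 57 were also lower. So were all 11 matrices of SNAI, SCRT, OLIG1 and OLIG2, and both sets are described below. A mean score lower by 5% or more was found for 33 of the 63 members, against 78 of all motifs (6.47%), and 45 of those 78 were not members. No member had a score higher by 5% or more, and 5 of all motifs did (0.415%). The median change was -5.04% over the members and -0.196% over all motifs, and 17 of the 20 motifs with the lowest ratios were members. The others were ZBTB18 and Olig2 (MA1997.1), whose matrices shared a cluster with members, and MITF.

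The difference was under 10% for each matrix and uneven between them. Ptf1A (MA1619.1), named for a factor of inhibitory neuron fate, had the lowest ratio of all motifs, with a mean score of 0.280 in WT and 0.252 in Tcf4 cKO, a change of -9.89%. Bhlha15 (MA1472.2) followed with 0.283 and 0.256, MYF5 (MA1641.1) with 0.279 and 0.253, Tcf12 (MA0521.2) with 0.283 and 0.257 and BHLHA15 (MA1472.1) with 0.280 and 0.255. All 5 of these lay between -9.89% and -8.85%, and all were in the cluster that the table names after Myod1. At the other end, ZEB1 (MA0103.2), a repressor, changed from 0.262 to 0.262 (-0.320%), NEUROD2 (MA0668.1) from 0.199 to 0.198 (-0.368%), TCF21 (MA1568.1) from 0.235 to 0.233 (-0.876%), TCF12 (MA1648.1) from 0.416 to 0.411 (-1.12%) and ZEB1 (MA0103.3) from 0.283 to 0.279 (-1.23%). TCF12 had a matrix both among the 5 lowest and among the 5 highest ratios.

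**Figure D1:**
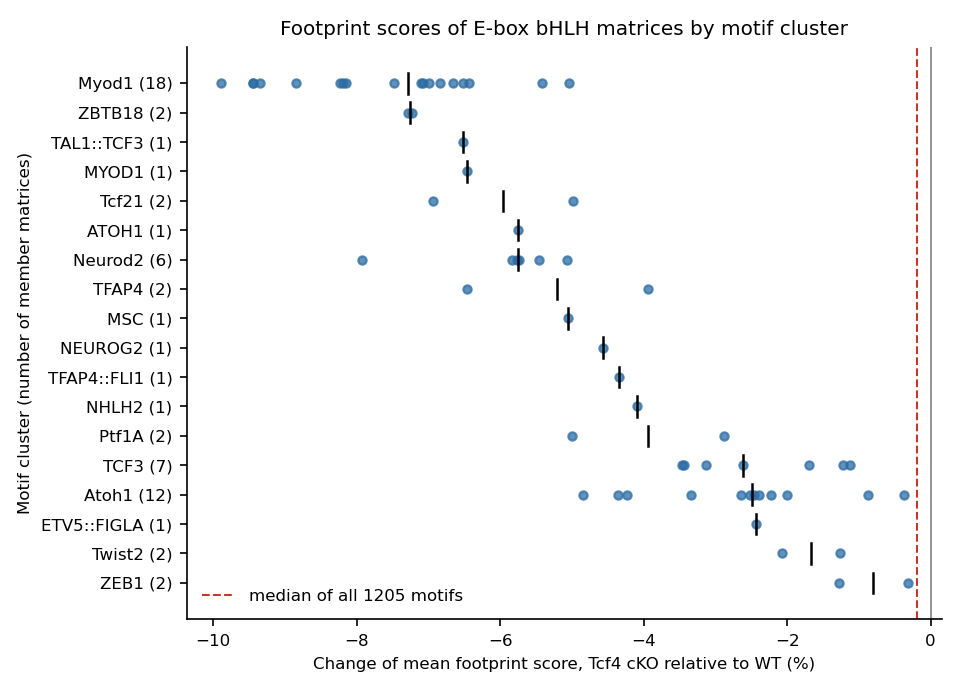
Change of the mean footprint score in Tcf4 cKO relative to WT, in percent, for each of the 63 member matrices (points), by motif cluster of the deposited table (number of member matrices in brackets), with the cluster median as a black bar and the median of all 1205 motifs as a dashed line. The 18 matrices of the Myod1 cluster lie between -9.89% and -5.04%, left of the 7 matrices of the TCF3 cluster, which lie between -3.47% and -1.12%.

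The members differed by cluster, and matrices named for the same factor could fall into different clusters. The Myod1 cluster held 18 members (of its 19 motifs), from Ptf1a, Nhlh1, Myod1 and Tcf12 matrices among others, and all 18 were lower by 5% or more, with a median of -7.29%. The Neurod2 cluster held 6, with matrices of Ptf1a, Neurog2, Neurod2, Hand2, Neurod1 and Atoh1, and all 6 were lower by 5% or more, with a median of -5.75%. Both TWIST1 matrices, in the cluster named after ZBTB18, were at -7.29% and -7.23%. By contrast, none of the 7 members of the TCF3 cluster and none of the 12 members of the Atoh1 cluster reached 5%, with medians of -2.62% and -2.49%, and the 2 ZEB1 matrices of the ZEB1 cluster had a median of -0.802%. Sites overlap between matrices of a cluster, so its members do not count as separate observations. The letters of the matrices were not used here, so which E-box core each cluster reads was not derived.

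The E proteins show this most directly. Both matrices of TCF4 itself, the deleted factor, lay in the TCF3 cluster. TCF4 (MA0830.1) had a mean score of 0.254 in WT and 0.245 in Tcf4 cKO (-3.43%), and TCF4 (MA0830.2) had 0.295 and 0.287 (-2.62%), both less than the median member. TCF3 (MA0522.2) was at -3.47% and TCF3 (MA0522.3) at -1.69%, in the same cluster, whereas Tcf3 (MA0522.1), in the Myod1 cluster, was at -6.44%. For TCF12 the split was wider: -9.35% (MA0521.2) and -6.99% (MA0521.1) in the Myod1 cluster, against -1.12% (MA1648.1) in the TCF3 cluster. Over the 8 E protein matrices, 3 were lower by 5% or more and the median was -3.45%.

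Among the proneural and neural factors, 14 of 23 matrices were lower by 5% or more, with a median of -5.07%. NEUROD2, a factor of maturing excitatory neurons, ran from -7.47% to -0.368% over 3 matrices in 3 clusters. The 9 matrices of the Olig-related factors Olig3, Bhlhe22, Bhlhe23 and Bhlha15 had a median of -3.33% and 3 at or past 5%, and BHLHA15, which controls secretory cell maturation, ran from -9.45% to -1.27% over 4 matrices. The matrices grouped by name as myogenic, of MYF, MYOD, MYOG and MSC, had 6 of 7 lower by 5% or more (median -6.52%). Those of the mesodermal factors Tcf21, Twist and Hand2 had 5 of 7 (median -6.94%). The composite TAL1::TCF3, of the blood factor Tal1 with an E protein, was at -6.51%, and FIGLA, an oocyte factor, at -2.88%. Among the 7 matrices of TFAP4 and ZEB1, 1 was lower by 5% or more, and the median was -2.44%.

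Counts of bound sites, which the footprint tool calls by a score threshold, moved the same way in most members. Of the 63 members, 56 had fewer bound sites in Tcf4 cKO and 7 had more. Among all motifs, 582 had fewer (48.3%). A count lower by 5% or more was found for 41 members against 97 of all motifs (8.05%), and one lower by 10% or more for 19 members against 21 of all motifs (1.74%). The median change was -7.06% over the members and 0.0882% over all motifs.

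The member with the most sites was ZEB1 (MA0103.1) with 47163, and the one with the fewest was BHLHE22 (MA0818.2) with 3988. For Ptf1A (MA1619.1), 2398 of 20677 sites were called bound in WT (11.6%, 95% Wilson interval 11.2 to 12.04) and 2068 in Tcf4 cKO (10.0%, 9.60 to 10.4). TWIST1 (MA1123.2) had the lowest change of any member, from 1887 to 1622 bound sites (-14.0%). The bound share of TCF4 (MA0830.1) was 10.2% (9.80 to 10.7) in WT and 9.86% (9.44 to 10.3) in Tcf4 cKO, and these intervals overlapped. The Wilson intervals cover counting error over sites only, not the spread between animals. The same sites were scored in both genotypes, so the intervals of a matrix are not from separate sets of sites. The 7 members with more bound sites were NEUROG1 and Neurog1 (MA0623.2 and MA0623.1), BHLHA15 and Bhlha15 (MA0607.2 and MA0607.1), TCF21 (MA1568.1), NEUROD2 (MA0668.1) and ZEB1 (MA0103.2). Their changes ran from 0.264% to 5.67%, and 5 of them belonged to the Atoh1 cluster.

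**Figure D2:**
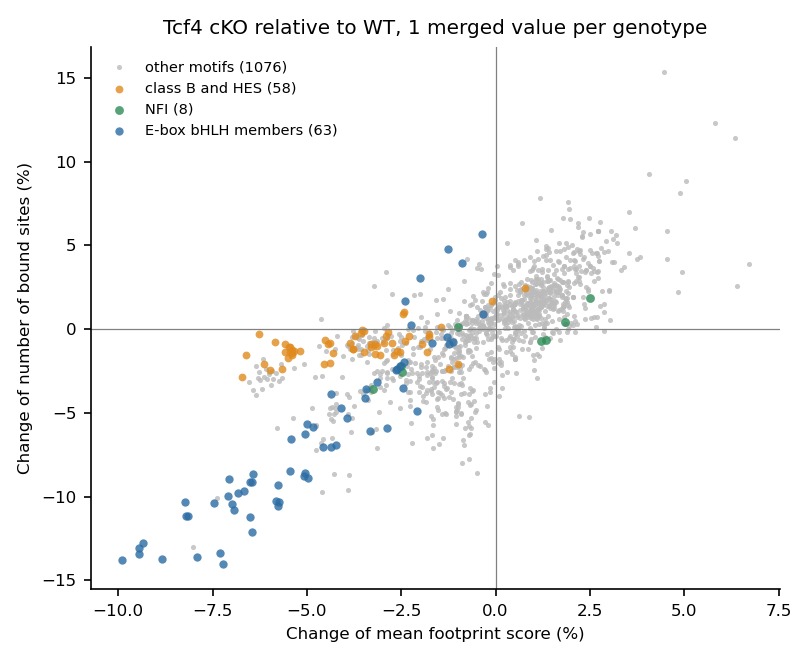
Change of the number of bound sites (y axis, percent) against the change of the mean footprint score (x axis, percent), Tcf4 cKO relative to WT, with 1 point per motif and 1 merged value per genotype. Members (blue) extend to the lower left, to -9.89% in score and -14.0% in bound sites, while class B and HES motifs (orange) reach -6.73% in score with no bound change under -2.86%.

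bHLH motifs of the Myc, Max, Usf, Mitf and Hes type differed from most members in this second measure. These 58 matrices were chosen by factor name and also include those of HIF1A, SREBF, CLOCK and NPAS2. Their median score change was -3.55%, and 18 were lower by 5% or more. None of the 58 had a count of bound sites lower by 5% or more, and the median change was -1.06%. None of the 7 members of the TCF3 cluster had one either. HESX1, a homeobox factor whose name begins alike, was left out of the 58. In WT the 58 had a median score of 0.444 and a median bound share of 21.9%, against 0.254 and 10.2% for the members. The part of these unlike levels in the result was not tested. The 8 matrices of the NFI family, which act in astrocyte development, had a median score change of 0.108% with none past 5% in either direction, and a median bound change of -0.662%. The 11 matrices of SNAI, SCRT, OLIG1 and OLIG2, which also read E-boxes, had medians of -2.05% and -1.70%. The bHLH matrices among them went further in bound sites: Olig2 (MA1997.1) changed by -10.1%, OLIG1 (MA0826.1) by -7.23% and OLIG2 (MA0678.1) by -2.58%.

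The deposited peak lists allow the E-box itself to be followed in each library, apart from any matrix. CANNTG has 10 forms when both strands are counted as 1, and each was searched in windows of 75 bp on each side of the summits of the 54159 peaks with the highest -log10 q in each library, which is the number of peaks in the library with fewest. CAGCTG was found in 15.1% and 16.04% of windows of the WT libraries and in 13.1% and 13.1% of those of the Tcf4 cKO libraries. Both Tcf4 cKO libraries were below both WT libraries. The means were 15.6% ± 0.687 (SD, n = 2) and 13.1% ± 0.031 (SD, n = 2), a difference of -2.44 percentage points. With 2 libraries against 2, an exact two-sided permutation test cannot give a p below 0.33, so no p is given for these comparisons.

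CAGATG differed next most. It was found in 12.01% and 12.8% of WT windows and in 10.8% and 11.01% of Tcf4 cKO windows, again without overlap. Relative to the WT mean this was a change of -11.9%, and that of CAGCTG was -15.7%. CACATG and CACGTG were lower without overlap too, with differences of -0.475 and -0.273 percentage points. CACCTG was not separated between genotypes in these windows: it was found in 6.85% and 6.15% of WT windows and in 6.46% and 5.98% of Tcf4 cKO windows. This depended on the window. With 150 bp on each side CACCTG was lower without overlap, at 15.8% and 15.2% in WT and 15.02% and 14.4% in Tcf4 cKO. CAACTG was then higher without overlap, by 0.063 percentage points. In the windows of 75 bp on each side, the other 5 forms also overlapped. Without overlap, 4 of the 10 forms were lower in Tcf4 cKO and 0 were higher, and of all 2080 hexamers 21.0% were lower and 22.6% higher by the same rule. Among the 2080 hexamers, CAGCTG had the largest decrease in percentage points and CAGATG the next. ACAGCT and AGCTGC, ranked 3 and 5, overlap CAGCTG in their letters. The largest increases were in CTTGGC (12.2% to 13.4%) and TGCCAA (9.38% to 10.5%), both of which contain letters of the site of NFI proteins, TTGGC. GC content of the windows ran from 55.2% to 55.6% over the 4 libraries.

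**Figure D3:**
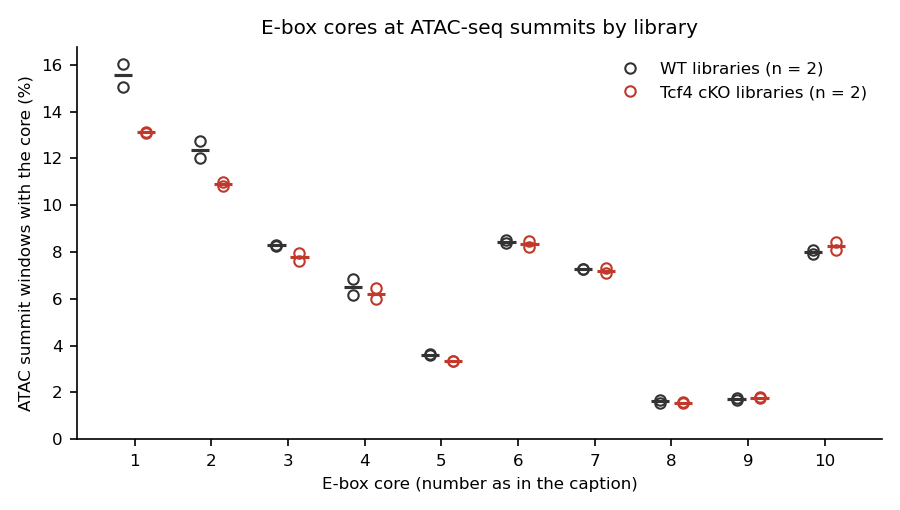
Share of ATAC-seq summit windows (percent) that hold each E-box core in the 2 WT and 2 Tcf4 cKO libraries (open circles) with genotype means (bars). Core 1 is CAGCTG, core 2 is CAGATG, core 3 is CACATG, core 4 is CACCTG, core 5 is CACGTG, core 6 is CAAGTG, core 7 is CAACTG, core 8 is CATATG, core 9 is CAATTG and core 10 is CAAATG, and the gap between genotypes is widest for core 1 (15.6% and 13.1%).

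The difference in CAGCTG was widest near the summit. Averaged over 20 bp bins whose centres were within 30 bp of the summit, CAGCTG occurred 24.1 and 25.3 times per 1000 summits in the WT libraries and 19.98 and 20.2 times in the Tcf4 cKO libraries. At bin centres 410 bp or more from the summit the values were 11.1 and 10.7 in WT and 10.97 and 10.8 in Tcf4 cKO, which overlapped. Between these distances both Tcf4 cKO libraries were below both WT libraries in some bins, such as 14.9 and 14.03 in WT against 13.8 and 13.3 in Tcf4 cKO at 190 bp before the summit. The summit level was 2.18 and 2.36 times the outer level in WT, and 1.82 and 1.86 times in Tcf4 cKO. CACCTG was scarcer at ATAC-seq summits than around them in every library, at 0.583 and 0.548 of the outer level in WT and 0.574 and 0.559 in Tcf4 cKO. When only summits over 1 kb from a transcription start site were taken, the CAGCTG means were 17.7% ± 0.845 (SD, n = 2) in WT and 14.4% ± 0.036 (SD, n = 2) in Tcf4 cKO, without overlap.

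**Figure D4:**
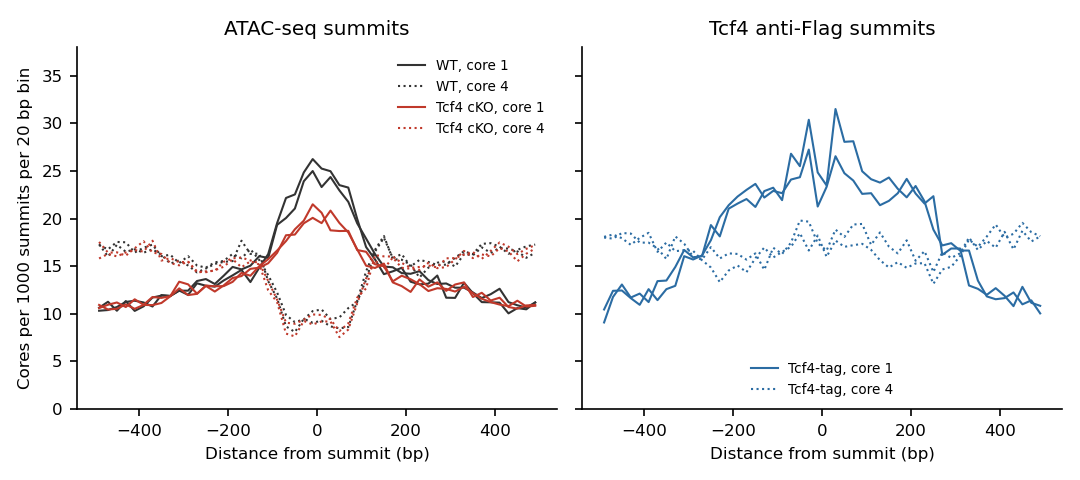
Number of cores per 1000 summits in 20 bp bins (y axis) against distance from the summit in bp (x axis), for core 1 (CAGCTG, solid) and core 4 (CACCTG, dotted), with 1 line per library. At ATAC-seq summits (left) core 1 peaks in both genotypes and is lower in both Tcf4 cKO libraries. Around Tcf4 anti-Flag summits (right) it is broadly raised, with a central level 2.13 and 2.41 times the outer level and 22.3 and 21.6 per 1000 still at 190 bp before the summit.

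Tcf4 occupancy carried the same core. CAGCTG was found within 75 bp of 14.2% of 28602 Tcf4 summits in the first library (95% Wilson interval 13.8 to 14.6) and of 15.4% of 16829 in the second (14.9 to 15.99). In windows moved by 1000 bp it was found in 7.03% and 6.43%, a ratio of 2.02 and 2.40 and a mean of 2.21 ± 0.27 (SD, n = 2). CACGTG was the only other form with a ratio above 1.1 in both libraries, at 1.38 and 1.41. CAGATG (1.01 and 0.997) and CACCTG (0.948 and 1.02) were near 1, and CATATG had the lowest ratios, 0.438 and 0.445. Against the bins 410 bp or more from the same summits, CAGCTG was again highest, at 2.13 and 2.41. But CAGATG was at 1.18 and 1.204 and CACGTG at 1.02 and 1.04, so the order of these forms depended on the measure. CAGCTG was raised broadly, not only at the Tcf4 summit. Within 30 bp it averaged 24.6 and 27.5 per 1000 summits in the 2 libraries. At 190 bp before the summit it was still 22.3 and 21.6, and at 190 bp after it 24.2 and 22.2. Open chromatin of WT cells held CAGCTG about as often at its summits (15.1% and 16.04%), and whether Tcf4 summits hold it beyond what their openness gives was not tested.

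The flanks of CAGCTG at Tcf4 summits differed from those at the moved windows. The base immediately 5′ of the core, taken on both strands, was G in 34.5% and 35.2% of 5102 and 3351 cores, against 26.1% and 23.9% in the moved windows, and T in 13.2% and 13.0% against 20.7% and 22.2%. The most frequent form with 2 flanking bases on each side was caCAGCTGca, in which the capitals mark the core, at 3.29% and 3.82% of cores against 0.885% and 1.12%. The next, caCAGCTGcc, was at 2.74% and 3.22% against 1.72% and 1.38%.

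The median difference in accessibility between genotypes was larger in regions with more CAGCTG copies. For 32120 consensus regions the deposited table holds 1 mean per genotype, in log2 normalized reads, and the difference is taken here as Tcf4 cKO minus WT, with no spread between libraries and no test. The median difference was -0.095 over all regions, and 4.18% were lower by 1 or more. For the 16323 regions with no CANNTG within 75 bp of the centre, the median was -0.083 and 2.02% were lower by 1 or more. For the 4154 regions with CAGCTG the median was -0.17 and 10.0% were lower by 1 or more, and for the 3381 with CAGATG it was -0.16 and 9.70%. The 2667 regions with CACCTG had a median of -0.11 and 6.26% lower by 1 or more. Regions with 0, 1, 2 and 3 or more copies of CAGCTG numbered 27966, 3764, 359 and 31, with medians of -0.086, -0.16, -0.32 and -0.65.

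Promoters made up 43.3% of all regions and 31.8% of those with CAGCTG. Outside promoters the median difference was -0.24 for 2835 regions with CAGCTG and -0.0047 for 7566 with no CANNTG, and the copy numbers 0, 1, 2 and 3 or more had medians of -0.037, -0.22, -0.50 and -0.73. CACCTG regions outside promoters had a median of -0.095. The share lower by 1 or more outside promoters was 13.9% with CAGCTG, 11.8% with CAGATG, 11.5% with CACCTG and 3.90% with no CANNTG, so by this measure CACCTG regions lay near the others. GC content was 52.6% in the CAGCTG regions outside promoters and 50.6% in those with no CANNTG, and its part in the result was not tested.

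**Figure D5:**
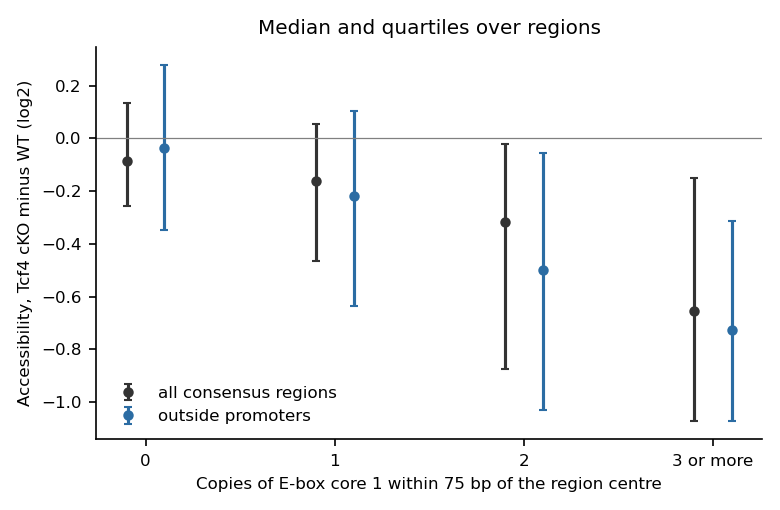
Accessibility difference (Tcf4 cKO minus WT, log2 normalized reads) against the number of copies of core 1 (CAGCTG) within 75 bp of the region centre, as the median (point) and quartiles (bars) over regions, for all 32120 consensus regions and for the 18211 outside promoters. Medians go from -0.086 with 0 copies to -0.65 with 3 or more in all regions, the last with 31 regions.

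Regions with Tcf4 peaks of both libraries and CAGCTG had the lowest medians. Outside promoters, 1038 such regions had a median difference of -0.47, against -0.25 for 3280 with Tcf4 and no CAGCTG, -0.12 for 1797 with CAGCTG and no shared Tcf4 peak, and 0.035 for 12096 with neither. The share lower by 1 or more was 19.4%, 9.79%, 10.7% and 4.37% in the same order. The WT level was not alike in these groups, with medians of 7.21, 7.53, 6.05 and 6.08 log2 normalized reads, and its part in the result was not tested.

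Regions with peaks in 1 genotype alone were read for the same core. They come from the same ATAC-seq peak lists as the summit windows above, so this is not a separate observation. CAGCTG lay within 75 bp of the centre in 104 of the 328 regions open in WT alone (31.7%, 95% Wilson interval 26.9 to 36.9) and in 19 of the 180 open in Tcf4 cKO alone (10.6%, 6.86 to 15.9). In all regions outside promoters the share was 15.6%. CAGATG was in 21.6% (17.5 to 26.4) and 13.9% (9.59 to 19.7), whose intervals overlapped, as did those of CACCTG, 9.45% (6.74 to 13.1) and 5% (2.65 to 9.23). Tcf4 peaks of both libraries overlapped 22.3% of the regions open in WT alone and 0 of the 180 open in Tcf4 cKO alone. The share was 37.1% of all consensus regions and 23.7% of those outside promoters, so the regions open in WT alone were not above the level of the other regions. The Tcf4 libraries come from cells that have Tcf4, and the 180 regions were chosen for having no ATAC-seq peak in WT. This choice itself leaves little room for Tcf4 peaks there, so the 0 is not a result about Tcf4.

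Histone marks, which played no part in choosing these regions, were compared at the 104 with CAGCTG. H3K27ac, a mark of active enhancers and promoters, had a peak at 26.0% and 27.9% of them in the WT libraries and at 1.92% and 2.88% in the Tcf4 cKO libraries. In the 224 regions open in WT alone without CAGCTG, the shares were 17.0% and 12.5% in WT and 6.25% and 2.68% in Tcf4 cKO. H3K4me1, found at enhancers, was at 49.0% and 55.8% of the 104 in WT and at 35.6% and 37.5% in Tcf4 cKO. It was at 46.9% and 47.8% of the 224 without CAGCTG in WT and at 31.7% and 29.0% in Tcf4 cKO, so lower values were found with and without the core. Over all CAGCTG regions outside promoters it was at 67.6% and 75.2% in WT and at 78.0% and 74.7% in Tcf4 cKO, which overlapped. H3K27me3, a mark of Polycomb repression, was at 4.81% or fewer in all 4 libraries. Outside promoters as a whole, H3K27ac covered 50.9% and 43.3% of the CAGCTG regions in WT and 38.8% and 31.2% in Tcf4 cKO, without overlap, whereas those without CAGCTG had 44.4% and 36.8% in WT and 39.1% and 31.6% in Tcf4 cKO, with overlap.

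The promoters of the 31 factor genes differed in chromatin state. An ATAC-seq peak in both WT libraries lay within 1 kb of a start site of a protein-coding transcript of 20 of them and H3K27ac at 10, while H3K27me3 was there at 20. Over all protein-coding genes the shares were 65.7%, 52.9% and 16.4%, so H3K27me3 was more frequent and H3K27ac less frequent among the factor genes. Tcf4, Tcf12 and Zeb1 had ATAC-seq and H3K27ac peaks and no H3K27me3 in both genotypes. Myf6, of the myogenic group, differed from these only by H3K27me3 in 1 Tcf4 cKO library. Atoh7 had ATAC-seq peaks and H3K27ac in both WT libraries and no H3K27me3. Msc, Atoh1, Tal1 and Tfap4 had H3K27ac together with H3K27me3 in both WT libraries. Tcf4 had 44 start sites and Tcf12 had 11, so a peak had more places to count than at Myf6 or Atoh7, with 1 each. Tcf3 had ATAC-seq peaks in both genotypes, H3K27ac in both WT libraries and not in both Tcf4 cKO libraries, and H3K27me3 in 1 WT library. Neurog1, Neurog2, Ptf1a, Twist1 and Myod1 had ATAC-seq peaks together with H3K27me3 in both WT libraries and no H3K27ac in both. Bhlha15, Myf5, Myog, Figla and Nhlh1, whose matrices were all lower in score, had neither ATAC-seq peaks nor H3K27ac or H3K27me3 in both libraries of either genotype. In Tcf4 cKO, 18 of the 31 had ATAC-seq peaks in both libraries, 6 had H3K27ac and 18 had H3K27me3, and over all protein-coding genes the shares were 64.9%, 49.9% and 16.6%. Expression of these genes was not analysed here.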

How the data were processed

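Reads were trimmed with Trim Galore, aligned to mm10 with Bowtie 2, filtered with SAMtools and called into peaks for each library with MACS2 by the authors, whose ATAC-seq and anti-Flag peak lists give each peak a deposited −log10 q-value. The authors' footprint table, made with TOBIAS from merged alignments, holds a mean footprint score, a number of sites and a number of bound sites for each motif and genotype. Their consensus table, made with DiffBind, holds deposited mean log2 normalized reads. Its fold changes and p-values, and the change scores and p-values of the footprint table, are the authors' comparisons and were not used. Some matrix identifiers belong to later JASPAR releases than the one the methods name.

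Depth is known only as peaks per library: 54159 to 72306 for ATAC-seq and 28602 and 16829 for Tcf4. From 2 to 5 mitochondrial peaks per library were left out. Percent changes, shares and Wilson intervals (scipy 1.17.1) were computed in Python 3.11.15, and E-boxes were read from GRCm38.p6 with pysam 0.24.0 on both strands, in windows of 75 bp on each side of a summit or region centre. Start sites came from GENCODE M21. Regions and peaks overlapped when they shared 1 bp or more, and the window counts were checked on simulated sequence. Groups follow the labels, and nothing in them says whether the 2 libraries of a genotype came from separate animals. Named by rule were all E protein matrices, the 5 lowest and 5 highest ratios, and the matrices with the most and fewest sites. A further set of matrices in that rule is not reported here. Role groups were fixed by name, and other matrices were named as examples after their values were seen. The members and lists were chosen with earlier results of these data known. Alternative thresholds, windows, peak numbers and subsets were tried.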

Additional observations from a re-analysis of the deposited data

How the results depend on the processing

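The count of 33 members with a mean score lower by 5% or more was 49 at 2.5%, 0 at 10% (as for all motifs), 29 with ratios centred on the median of all motifs, 32 without TFAP4 and ZEB, and 10 of 18 with 1 matrix per cluster, where fewer matrices were counted. All members had over 1000 sites, so that limit changed nothing. The median log2 ratio of -0.075 and the median difference in bound share of -0.81 percentage points kept their sign and stayed within 1.5 times under every alternative for them. The CAGCTG difference of -2.44 percentage points between ATAC-seq genotypes was -3.28 for summits over 1 kb from a start site and ran from -2.92 to -1.95 when 1 library was left out. The CAGCTG ratio at Tcf4 summits, 2.21, was 2.02 and 2.40 with 1 library left out. The median accessibility difference of CAGCTG regions minus that of regions with no CANNTG was -0.089, and -0.24 outside promoters. The cause of these shifts was not tested. No paired analysis was possible because no result comes from a test: the footprint and consensus values are 1 merged value per genotype, and the shares per library are compared only by whether 2 libraries overlap 2 others. With 2 libraries per genotype and no read counts, the precision of each share is limited.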
